A study of Mus musculus with 6 samples.

Results

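Atf4 and its partner genes of the integrated stress response were read together with the enzymes that make serine and pass its carbon to folate, in GFP+ bone marrow cells of mice that carried MLL-AF9 leukemia. The 10 genes, Atf4, Atf5, Ddit3, Trib3, Chac1, Asns, Psat1, Phgdh, Shmt2 and Mthfd2, were taken by name from the 55487 genes of the expression table, and all 10 were found. Bulk RNA-seq was available for 6 libraries, 3 labelled PBS and 3 labelled pIpC. Donor cells of both groups were CD45.2(+) Mx1-Cre Brd9fl/fl MA9 cells on C57BL/6, where MA9 is the MLL-AF9 fusion, and 1000 of them were given to irradiated CD45.1(+) CD45.2(-) recipients. Starting the day after the transplant, recipients received either PBS or 20 mg/kg pIpC every other day for 3 injections, and marrow of femora and tibiae was taken 10 days after injection. pIpC is a synthetic double-stranded RNA that raises interferon and so switches on Mx1-Cre, which is meant to remove the floxed exons of Brd9, a subunit of the ncBAF chromatin remodeller. Because only 1 group received pIpC, the agent and the deletion it is meant to cause cannot be told apart. The recipients of this transplant were 6 weeks old. The sources used here do not say whether the libraries of a group came from separate mice, so p-values measure only the spread between these libraries.

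ATF4 is a bZIP transcription factor whose translation rises when kinases that sense amino acid shortage, unfolded proteins, heme or viral RNA phosphorylate eIF2alpha. It binds DNA with C/EBP partners and switches on genes for amino acid uptake and synthesis, while CHOP (Ddit3), ATF5 and TRIB3 carry or restrain the later phase. Serine is made from a glycolytic intermediate by PHGDH, PSAT1 and PSPH in turn, SHMT2 splits it to glycine in mitochondria, and MTHFD2 oxidizes the released carbon on folate for purine and thymidylate synthesis. Since ATF4 is set largely by translation, its mRNA level does not measure its protein.

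The ATF4 site in the promoters of its amino acid targets joins part of a C/EBP site to part of an ATF site. Matches to TGATGNAA on either strand (TTNCATCA on the other strand) were sought in RefSeq promoter windows of 300 bases (GRCm38.p6, 250 before to 50 after the start), and 3 of the 10 genes had one. The 3 sites are shown because they are the members' only matches, each with its 8 matching bases in capitals and read 5′ to 3′ along its gene, from chr2:119351038-119351067 on the plus strand for Chac1, chr6:7693214-7693243 on the minus strand for Asns and chr2:152344028-152344057 on the minus strand for Trib3.
Chac1: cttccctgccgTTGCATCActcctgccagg
Asns: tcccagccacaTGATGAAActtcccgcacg
Trib3: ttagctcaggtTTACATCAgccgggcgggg
Counted from the RefSeq start, the match began 193 bases before Chac1, 23 bases before Asns and at base 15 of Trib3. The gene spans given below follow GENCODE, which places these starts differently. By those spans the Asns site lies inside the gene and the Trib3 match lies before its start. Chac1 and Asns were higher in the libraries labelled pIpC (values follow), Trib3 was too low to test, and Phgdh, with the largest change, held no match in this window. Of all 32851 windows, 3.97% held the motif. A match describes letters and is not evidence of binding.

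Libraries held 19277439 to 23586722 recovered reads. The targeted gene was read first. Brd9 stood at 1927, 1946 and 1632 normalized counts (reads divided by 1 size factor per library) in PBS and at 2036, 2263 and 2011 in the libraries labelled pIpC, so it was not lower in any of them (log2 fold change 0.20 ± 0.13 SE, limma adjusted p = 0.259, two-sided exact permutation p = 0.1, the smallest that 3 against 3 allows). A count over the whole gene also takes in exons outside the floxed part, and the label is therefore used here only as a name. Markers of other cells differed widely. All 10 neutrophil markers were called higher, their summed level going from between 16300 and 36510 in PBS to between 1906000 and 1976000. Also called higher were the 9 erythroid markers found (Ahsp was not), all 10 B cell markers and the 7 T and NK cell markers that could be tested. In the libraries labelled pIpC the neutrophil markers held 8.35 to 8.51% of reads. The erythroid markers held 0.029 to 0.037%, those of T and NK cells 0.017 to 0.0196% and those of B cells 0.00662 to 0.0125%. In those libraries Nkg7 of the T and NK list had 4320, 3623 and 4194 reads, against 14, 4 and 6 for Cd3e. Tfrc of the erythroid list had 4249, 3624 and 3767, against 1667, 1019 and 1461 for Hba-a1. The T and NK and the erythroid shares thus rest heavily on 1 gene each and do not measure amounts of those cells. Ly6g, which marks neutrophils, went from 2.6, 27.3 and 28.3 to 4063, 4525 and 4357. Of 8 leukemia markers 6 were called lower and 1 higher, with sums of 25410 to 27330 in PBS against 8609 to 8902, and the MLL-AF9 target Hoxa9 went from 4917, 5172 and 5301 to 224, 276 and 269. In PBS 2 erythroid markers, 1 B cell marker and 1 T cell marker had no read, and none of any list was at 0 throughout the libraries labelled pIpC. Macrophage markers were mixed, 6 higher and 3 lower of 10, and limma called 0 of 7 mitochondrially encoded RNAs (0 at an unadjusted p under 0.05, 1 with edgeR and 4 with DESeq2). The part of these cell types in the results that follow was not tested, and in bulk RNA fewer cells of a type and less RNA per cell cannot be told apart.

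The test covered 15020 genes whose normalized count averaged 10 or more. It was limma on the log2 scale, with 1 added to each normalized count, at a Benjamini-Hochberg adjusted p under 0.1. Of these 45.3% were called, 25.0% as higher under pIpC and 20.4% as lower. Of the 9 members tested 7 were called, 3 higher (Phgdh, Chac1, Asns) and 4 lower (Atf5, Psat1, Atf4, Shmt2). Ddit3 and Mthfd2 did not pass, and Trib3 fell below the filter. The groups did not overlap for 8 of the 9, against 56.8% of all tested genes. The median log2 fold change of the 9 was -0.42, against 0.015 over all tested genes.

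**Figure D1:**
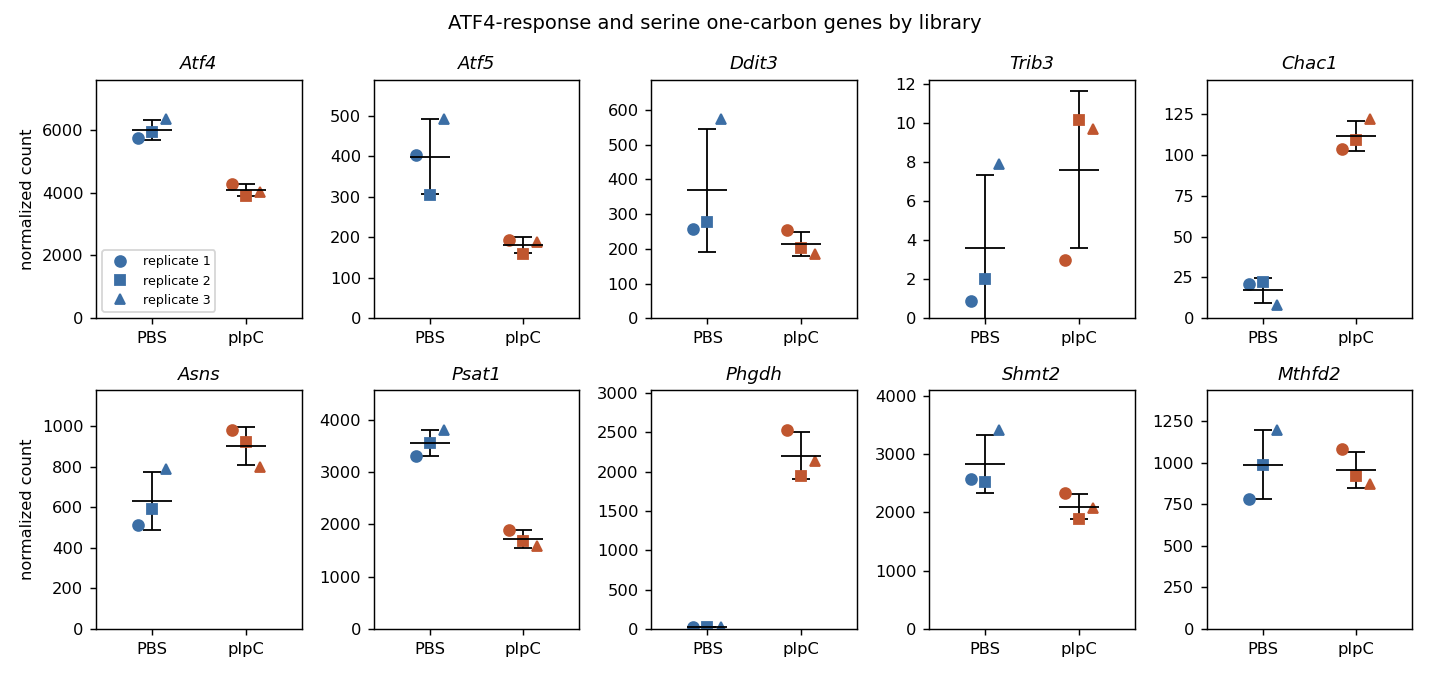
Normalized counts (vertical axes, each from 0) of the 10 genes in the 3 PBS and 3 pIpC libraries; symbols are replicates, bars the group mean and its SD. Phgdh sat between 20.8 and 24.3 in PBS and between 1945 and 2528 in the libraries labelled pIpC, while Atf4 and Psat1 lay lower there than in every PBS library.

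Atf4 (chr15:80255184-80257541 in GRCm38, plus strand, 3 exons) had 5733, 5929 and 6333 normalized counts in PBS and 4278, 3909 and 4034 in the libraries labelled pIpC. All 3 of the latter lay below all PBS libraries, and both groups were tight. The mean fell from 5998 ± 306 to 4074 ± 188 (SD, n = 3 each), a log2 fold change of -0.56 ± 0.11 SE with a limma adjusted p of 0.00875. By level per transcript length it remained the highest of the 10 genes in both groups, at 167 ± 12.4 in RPKM (recovered reads scaled for transcript length and for the library's total) in PBS and 103 ± 3.83 in pIpC.

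Atf5 (chr7:44812256-44816658, minus strand), which codes for the ATF4-related factor translated under the same control, had 402, 305 and 491 normalized counts in PBS against 194, 159 and 190. The groups were apart, and PBS replicate 3 was the highest. Its log2 fold change was -1.12 ± 0.22 SE (limma adjusted p = 0.00716). The gene overlaps Nup62 and Il4i1, and Nup62 itself had a log2 fold change of -0.26 and was not called.

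Ddit3 (chr10:127290774-127296288, plus strand), the gene of the pro-apoptotic factor CHOP, had 256, 276 and 573 normalized counts in PBS and 254, 203 and 186 in pIpC. PBS replicate 3 held 2.15 times the mean of the other PBS libraries, and the nearest libraries of the groups were almost level. The log2 fold change of -0.69 ± 0.33 SE did not pass (limma adjusted p = 0.149), and without PBS replicate 3 it was -0.32 (adjusted p = 0.108). It passed without PBS replicate 1, at -0.90 (adjusted p = 0.0947), and with DESeq2, at -0.78 (adjusted p = 0.0774). The Mars gene overlaps Ddit3 and had a log2 fold change of -0.27. Its reads cannot be separated by strand if the libraries were unstranded, as the submitters' notes say.

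Trib3 (chr2:152337422-152344032, minus strand), a pseudokinase that restrains ATF4 and CHOP, was read only 1, 2 and 7 times in PBS and 3, 10 and 10 times in pIpC. These ranges overlap. With no filter its log2 fold change was 1.08 ± 0.73 SE (limma adjusted p = 0.353).

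The 5 genes whose pattern over the 6 libraries was closest to that of Atf4, among 10486 others with a mean of at least 100, were Atp6v1c1, Rrp8, Mrps2, Wdr43 and Plekha3. Their root mean square distances from Atf4 on the log2 scale, after centring each gene, were 0.020 to 0.039. Among members the nearest was Shmt2 at 0.133, rank 394, followed by Psat1 at 0.253, rank 2032. Asns lay at 0.569, rank 7135, and Phgdh at 3.54, rank 10374, so the mRNA patterns of Asns and Phgdh were far from that of Atf4. Chac1 and Trib3 averaged below 100 and were not compared.

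Chac1 (chr2:119351229-119354381, plus strand) codes for the enzyme that breaks down glutathione in the late phase of the response. It had 20.8, 22.3 and 7.9 normalized counts in PBS and 104, 109 and 122 in pIpC. The groups were far apart, although the PBS values rest on 24, 22 and 7 reads. Its log2 fold change was 2.77 ± 0.41 SE (limma adjusted p = 0.0023), a ratio of means of 6.57. Its paralog Chac2, which has the same activity, had a log2 fold change of 0.81 ± 0.28 SE (limma adjusted p = 0.0645). Per length, Chac1 stood at 0.0531 to 0.253 of Chac2 in PBS libraries and at 0.526 to 0.679 in those labelled pIpC.

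Asns (chr6:7675169-7693254, minus strand), asparagine synthetase, had 511, 591 and 788 normalized counts in PBS and 980, 924 and 800 in pIpC. The groups met closely, at 788 in PBS replicate 3 and 800 in pIpC replicate 3. The log2 fold change was 0.53 ± 0.19 SE (limma adjusted p = 0.0687). This call was lost when any library other than PBS replicate 3 was left out (adjusted p 0.115 to 0.203) and was kept without PBS replicate 3, at 0.71 (adjusted p = 0.000588). Per length Asns stood at 0.0763, 0.0853 and 0.106 of the Atf4 level within PBS libraries and at 0.196, 0.202 and 0.170 within those labelled pIpC.

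**Figure D2:**
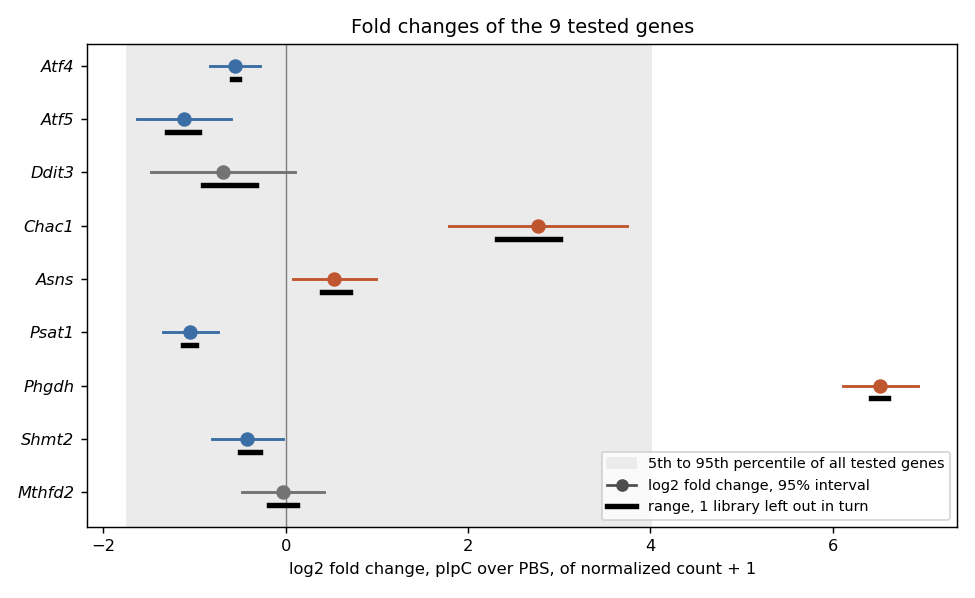
Log2 fold changes of the 9 tested genes with 95% intervals (orange called higher, blue called lower, grey not called), the range when each library is left out in turn (black bars) and, shaded, the span of the middle 90 percent of all tested genes, -1.75 to 4.01. Phgdh, at 6.52, lies outside that span, and the left-out range of Mthfd2 crosses 0.

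Phgdh (chr3:98313170-98339990, minus strand, 12 exons), 3-phosphoglycerate dehydrogenase, the entry enzyme of serine synthesis, changed most among the members. It had 20.8, 24.3 and 23.8 normalized counts in PBS, from 24, 24 and 21 reads, and 2528, 1945 and 2141 in pIpC. Every library labelled pIpC stood far above every PBS library. The mean rose from 22.9 ± 1.90 to 2205 ± 297 (SD, n = 3 each), a ratio of 96.1 and a log2 fold change of 6.52 ± 0.17 SE (limma adjusted p = 1.03e-05). In the order of all 15020 tested genes it was number 126 from the top. A processed pseudogene, Phgdh-ps1, is annotated and had no read in any library.

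Psat1 (chr19:15904678-15947337, minus strand), phosphoserine aminotransferase, which acts next in the same chain, went the other way. It had 3306, 3548 and 3801 normalized counts in PBS and 1900, 1676 and 1577 in pIpC. No library of a group reached the other group. The log2 fold change was -1.05 ± 0.13 SE (limma adjusted p = 0.000874). Psph, the phosphatase that completes serine, had 335, 350 and 630 in PBS and 302, 284 and 263 in pIpC, with a log2 fold change of -0.57 ± 0.26 SE that did not pass (limma adjusted p = 0.137).

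Per length, Phgdh moved from the 8th to the 2nd place among the 10 genes. It stood at 0.582 ± 0.0689 RPKM in PBS, below Psat1 at 65.1 ± 4.51, and at 50.7 ± 6.35 in pIpC, above Psat1 at 28.6 ± 2.48. Within single libraries the ratio of Phgdh to Psat1 was 0.00868, 0.00947 and 0.00864 in PBS and 1.84, 1.61 and 1.88 in pIpC. The mRNA of Phgdh lay below that of Psat1 in every PBS library and above it in every library labelled pIpC. This ratio is taken within a library and does not depend on the scaling between libraries.

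Shmt2 (chr10:127517123-127522444, minus strand), mitochondrial serine hydroxymethyltransferase, had 2568, 2513 and 3407 normalized counts in PBS and 2326, 1888 and 2076 in pIpC. All 3 libraries labelled pIpC were lower than the lowest PBS library. The log2 fold change was -0.42 ± 0.16 SE (limma adjusted p = 0.0854), a call lost when pIpC replicate 1, 2 or 3 was left out (adjusted p 0.12, 0.265 and 0.212). Its cytosolic counterpart Shmt1 had a log2 fold change of -0.45 ± 0.12 SE (limma adjusted p = 0.0247), and per length Shmt2 was 2.45 to 3.35 times Shmt1 in PBS libraries and 2.64 to 3.05 times in pIpC libraries.

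Mthfd2 (chr6:83305691-83325908, minus strand), the mitochondrial methylenetetrahydrofolate dehydrogenase, had 780, 987 and 1196 normalized counts in PBS and 1081, 921 and 870.3 in pIpC. These ranges overlap. The log2 fold change was -0.03 ± 0.19 SE (95% interval -0.48 to 0.42, limma adjusted p = 0.916), and it was 0.12 without PBS replicate 3 and 0.04 without pIpC replicate 3. Gm43890, which overlaps Mthfd2, had at most 20.4 normalized counts in a library, Ndufa4l2, which overlaps Shmt2, had at most 5.0, and Gm3329, which overlaps Psat1, had none.

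**Figure D3:**
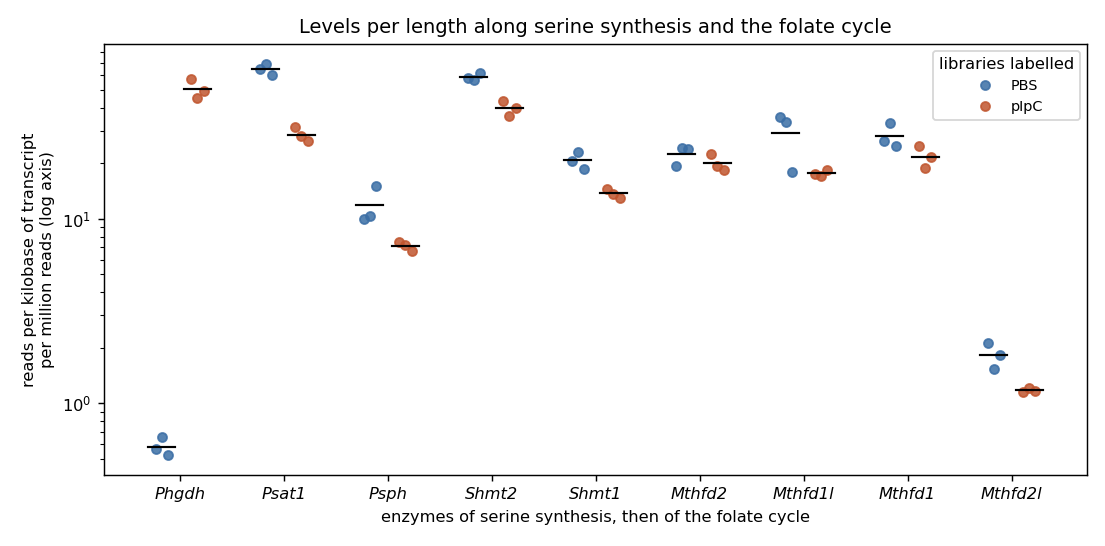
Levels per transcript length (RPKM, log axis) of 3 enzymes of serine synthesis and 6 of the folate cycle in each PBS (blue) and pIpC (orange) library, with group means as lines. Phgdh rises from 0.582 to 50.7. By RPKM, Psat1, Psph, Shmt2, Shmt1, Mthfd1 and Mthfd2l lie lower in every pIpC library than in every PBS library, while Mthfd2 and Mthfd1l overlap. The normalized counts, which were tested, differ for Mthfd1 and Mthfd1l. There Mthfd1 overlaps and was not called (limma adjusted p = 0.273). Mthfd1l lies lower in every pIpC library and was called lower (limma adjusted p = 0.0795). Psph and Mthfd2l were not called (limma adjusted p = 0.137 and 0.152).

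By mean level per length in PBS the order was Atf4, Psat1 (65.1), Shmt2 (58.7), Mthfd2 (22.5), Ddit3 (19.2), Asns (14.8), Atf5 (10.4), Phgdh (0.582), Chac1 (0.518) and Trib3 (0.0787 RPKM). In the libraries labelled pIpC it was Atf4, Phgdh (50.7), Shmt2 (39.9), Psat1 (28.6), Mthfd2 (20.0), Asns (19.5), Ddit3 (10.5), Atf5 (4.34), Chac1 (2.97) and Trib3 (0.165 RPKM). The library ranges of Psat1 and Shmt2 overlapped in PBS. Those of Mthfd2, Ddit3 and Asns touched or overlapped in turn in PBS, as did those of Phgdh and Chac1. In pIpC those of Mthfd2 and Asns overlapped.

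PBS replicate 3 had the highest normalized count of its group for 8 of the 10 genes, from 1.09 times the mean of the other PBS libraries for Atf4 to 5.45 times for Trib3, whereas Chac1 was at 0.367 of that mean. The same library departed outside the 10 genes too. Gpx4 (959 transcript bases) had 7425 normalized counts there, against 2873 and 3037 in PBS replicates 1 and 2. Gcn1 (8555 bases) had 1073, against 2009 and 2142. Reads fell on 19838 genes there, against 21456 and 21165. A relation to transcript length was not tested. Without this library 9829 of all genes were called instead of 6808, and the count of members called was 7 again. Quantile normalization moved the median log2 fold change of all tested genes to -0.12 and the split of calls from 3750 higher and 3058 lower to 3244 and 4078. Under it the called members had the same directions, with Phgdh at 6.23, Chac1 at 2.35, Asns at 0.48, Shmt2 at -0.55, Atf4 at -0.66, Atf5 at -1.11 and Psat1 at -1.19.

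The pathway lists around the 10 genes held 167 other genes, of which 155 were tested, 29 called higher and 37 lower (66, with a median of -0.15). Over all tested genes 45.3% were called, 25.0% higher and 20.4% lower. The count of 66 lies near that share, and the counts by list that follow are to be read beside it. Without PBS replicate 3 the count was 106, and without pIpC replicate 2 or 3 it was 38 or 40. Upstream of ATF4, 4 of 17 eIF2alpha kinase, phosphatase and eIF2B genes were higher and 4 lower (14 called without PBS replicate 3). Ppp1r15a, the stress-induced subunit that returns eIF2alpha to its active form and an ATF4 target, fell from 1170, 1224 and 946 normalized counts to 265, 204 and 215, a log2 fold change of -2.28 ± 0.17 SE (limma adjusted p = 0.000121). Impact, which restrains the amino acid sensor GCN2, rose by 1.94 ± 0.25 on the log2 scale (limma adjusted p = 0.00129).

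Of 10 bZIP partners and pseudokinases, 6 were called higher and 1 lower, with a median of 0.79. Trib2, a relative of Trib3, had 1 read in all PBS libraries and 61.9, 55.2 and 89.9 normalized counts in pIpC. Its fitted log2 fold change of 5.80 (limma adjusted p = 0.000117) depends on the added count. Atf3, another early stress factor, had 58.0, 32.4 and 12.4 in PBS and 14.0, 11.2 and 4.8 in pIpC, with a log2 fold change of -1.54 ± 0.64 SE (limma adjusted p = 0.103), and passed under 6 alternatives, among them edgeR (adjusted p = 0.0699).

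Other stress-response targets split, 4 higher and 8 lower of 20 tested, with a median of -0.46 (8 to 18 called when a library was left out, the fewest without pIpC replicate 1 and the most without PBS replicate 3). Stc2, a secreted stress protein, had the lowest value at -4.69 ± 0.71, and Hmox1, the heme-degrading enzyme also driven by NRF2, the highest at 3.06 ± 0.22 (log2 fold change and SE, limma adjusted p = 0.0024 and 9.57e-05). Stc2 was read 82, 86 and 64 times in PBS and 6, 0 and 3 times in pIpC, so the size of its fold change depends on the added count. Among 12 tested amino acid transporters 4 were higher and 2 lower. Slc43a1, a neutral amino acid carrier, rose from 27.7, 28.3 and 40.7 to 427, 330 and 425 normalized counts (log2 fold change 3.58 ± 0.24 SE, limma adjusted p = 7.69e-05), and Slc36a4 fell by 0.80 ± 0.26 (limma adjusted p = 0.0542), a call lost when any library other than PBS replicate 3 was left out. The count of transporters was 9 without PBS replicate 3, 3 without PBS replicate 2 and 2 without each pIpC library.

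Of 13 tRNA synthetase and tRNA export genes limma called 0 higher (0 at an unadjusted p under 0.05, 0 with edgeR and DESeq2) and 2 lower, with 11 of 13 fold changes below 0 and a median of -0.25 (6 called without PBS replicate 3 or with quantile normalization, 5 with DESeq2, 4 with edgeR or median-centred ratios, 1 without pIpC replicate 2 or 3 or at an adjusted p under 0.05, none of them higher). Tars1 had the lowest value, -0.81 ± 0.12 (limma adjusted p = 0.00198), and Nars1 the highest, 0.10 ± 0.12, which was -0.02 after quantile normalization. Among 12 glutathione partners of Chac1, 4 were higher and 5 lower (5 called without pIpC replicate 2 or 3). Ggt5, a gamma-glutamyl enzyme, rose by 4.33 ± 0.30 on the log2 scale (limma adjusted p = 9e-05), from only 14, 9 and 16 reads in PBS. Gpx1, a glutathione peroxidase, had 26351, 27562 and 65202 normalized counts in PBS and 20625, 18672 and 19335 in pIpC, with a log2 fold change of -0.89 ± 0.36 SE (limma adjusted p = 0.0946) that did not pass when any pIpC library was left out (adjusted p 0.194 to 0.231).

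Of 20 genes of the IRE1 and ATF6 arms, the branches of the endoplasmic reticulum stress response outside ATF4, 3 were called, 1 higher and 2 lower, with a median of 0.09. This count depended on the library left out, being 1 without pIpC replicate 2 or 3, 6 and 5 without PBS replicate 1 and 2, and 11 without PBS replicate 3. Calr, the chaperone calreticulin, fell by 0.88 ± 0.24 (limma adjusted p = 0.0292, not called without pIpC replicate 2 or 3), and Ern1, which codes for IRE1, had 1692, 1623 and 663 normalized counts in PBS against 2066, 2345 and 2149 and did not pass (limma adjusted p = 0.111) unless a PBS library was left out (adjusted p 0.00166 to 0.0937). Of 8 tested mitochondrial stress genes 1 was called, the protease gene Yme1l1 at 0.28 ± 0.11 (limma adjusted p = 0.0997), and it did not pass with edgeR, after quantile normalization or in any left-out fit other than that without PBS replicate 3. The chaperonin gene Hspe1 had the lowest value there, -0.51 ± 0.40 (limma adjusted p = 0.355).

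Apart from the members, 2 of 7 serine and glycine genes were higher and 2 lower, with a median of -0.072 (2 called without PBS replicate 2 or pIpC replicate 1, and 1 without pIpC replicate 2 or 3). Gcsh, of the glycine cleavage system, fell by 1.10 ± 0.26, and Sdsl, a serine dehydratase relative, rose by 1.15 ± 0.36 (limma adjusted p = 0.0157 and 0.0431). The call of Sdsl was lost when any library other than PBS replicate 3 was left out, with adjusted p up to 0.143. Of 12 folate enzymes limma called 0 higher (0 at an unadjusted p under 0.05, 0 with edgeR and DESeq2) and 3 lower, and 10 of the 12 fold changes were negative (median -0.31, 5 called with quantile normalization, 0 without pIpC replicate 2 and 1 without pIpC replicate 3). Fpgs, which traps folate in cells, fell by 0.59 ± 0.17 (limma adjusted p = 0.0315), and Aldh1l1, with 54.9, 279.9 and 44.5 normalized counts in pIpC, rested on pIpC replicate 2, its log2 fold change going from 0.68 to -0.15 without it.

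Of 7 folate and serine carriers 2 were higher and 3 lower. Slc46a1, the proton-coupled folate transporter, fell by 2.04 ± 0.30, and Sfxn5, of the sideroflexin family that holds the mitochondrial serine carrier, rose by 1.30 ± 0.21 (limma adjusted p = 0.00215 and 0.00347). The other listed sideroflexins did not follow Sfxn5 closely. Sfxn1 rose by only 0.34 ± 0.12 (limma adjusted p = 0.0661). Sfxn2 and Sfxn3 fell by 0.84 ± 0.13 and 0.88 ± 0.13 (limma adjusted p = 0.00308 and 0.00252). The methionine cycle and transsulfuration genes had 3 of 9 lower and 0 higher (also 0 higher by limma at an unadjusted p under 0.05 and by edgeR and DESeq2; 5 called without PBS replicate 3, 2 without pIpC replicate 2 or 3), with Cth, the cysteine-forming lyase, at -3.19 ± 0.78 (limma adjusted p = 0.0185) and Ahcyl1 highest at 0.21 ± 0.16. Cth was read 24, 39 and 24 times in PBS and 7, 3 and 0 times in pIpC, so the size of its fold change also depends on the added count. Of 11 purine synthesis genes 4 were lower and 1 higher (8 called without PBS replicate 3, 3 without any pIpC library). The higher one was Impdh1, of the guanine branch, which went from 199, 246 and 234 to 2136, 1946 and 2259 normalized counts (log2 fold change 3.22 ± 0.14 SE, limma adjusted p = 2.14e-05), and the lowest was Adss, of the adenine branch, at -0.93 ± 0.11 (limma adjusted p = 0.000822).

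**Figure D4:**
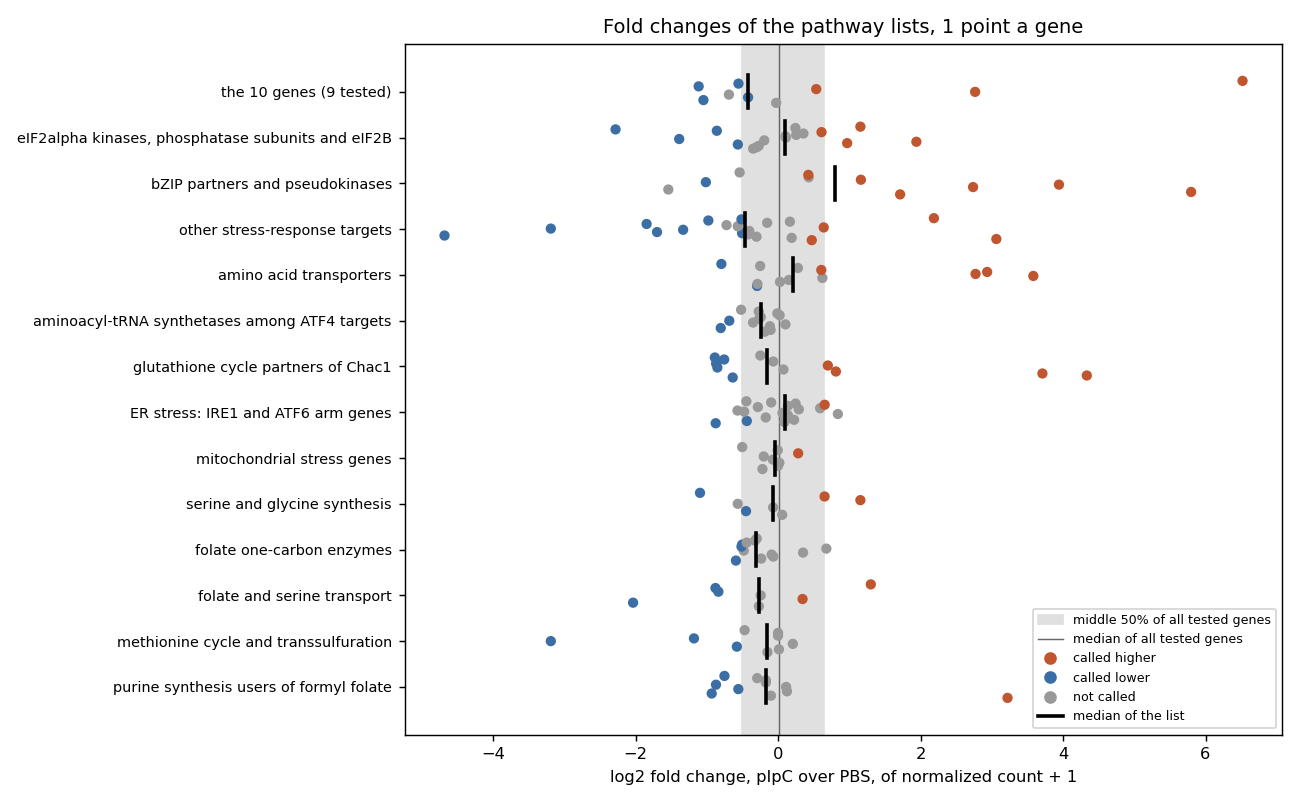
Log2 fold changes of the tested genes of the 10 genes and of each pathway list, 1 point a gene (orange called higher, blue called lower, grey not called), with list medians as black bars and the middle 50 percent of all tested genes, -0.51 to 0.64, shaded. Among the pathway lists, the bZIP list has the highest median, 0.79, and the other stress-response targets the lowest, -0.46.

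Outside the 10 genes, 65 of the 89 genes of the ATF4 lists had a promoter window, and 15 of these (23.1%) held the motif. This share counts genes with a match in any window, whereas the 3.97% given above counts windows. The lists were also written from general knowledge of the ATF4 response. The share is therefore a description of the lists and not a test of enrichment. Of these 15 genes 14 were tested. Among them 4 were called higher (Slc7a11, Nupr1, Nrip1 and Jdp2) and 4 lower, beside 25.0% and 20.4% of all tested genes. The lower ones were Vldlr, Pycr1, Tars1 and Yars1, with log2 fold changes of -1.70, -1.34, -0.81 and -0.69. Slc7a11, the cystine carrier, which holds the motif, had 18.2, 16.2 and 13.6 normalized counts in PBS and 102, 144 and 102 in pIpC (log2 fold change 2.77 ± 0.27 SE, limma adjusted p = 0.000344). It was singled out after its values were seen.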

How the data were processed

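The deposited table holds gene counts that the authors divided by 1 size factor per library, treated here as a signal. Whole reads were recovered, since 100% of values were multiples of the value of 1 read (tolerance 0.01). For pIpC replicate 1, where 1 read is worth 0.998, this rests on the values alone. The submitters' processing notes name HISAT2 (2.2.1), SAMtools, featureCounts of Subread, edgeR and GRCm38, and unstranded libraries of GFP+ cells, whereas the methods of the study describe STAR, RSEM, stranded libraries and c-Kit+ cells, and the 2 were not reconciled. Irradiation is also described differently.

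limma (3.58.1, R 4.3.3, intensity trend, no block) was fitted to log2(normalized count + 1) over all genes with a mean of at least 10, with Benjamini-Hochberg adjusted p under 0.1, 2-sided. RPKM were computed from recovered reads, all reads of a library and the length of the APPRIS principal transcript (GENCODE M21, GRCm38). Members and lists were chosen with earlier results of these data known, so their counts are descriptions. Named genes were Brd9, the members, each list's highest and lowest tested gene, the 5 nearest to Atf4 and 6 markers, and others are named as comparators. The limma script was tested on simulated counts. Other fits used pseudocounts of 0.1 and 10, all genes or those averaging 50, quantile normalization, ratios centred on their median, no trend, a replicate block, a threshold of 0.05, each library left out, and edgeR (4.0.16) and DESeq2 (1.42.0) on recovered reads. No column was left out.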

Additional observations from a re-analysis of the deposited data

How the results depend on the processing

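Over 17 alternatives each, Atf4, Atf5, Chac1, Psat1 and Phgdh were called in the same direction throughout, and Brd9 was never called. Members called ranged from 5 to 8 of those tested, and genes called over the table from 4551 to 9829 when a library was left out. The pathway genes called ranged from 38 to 106 when a library was left out. Asns and Shmt2 each lost their call in 7 alternatives, among them an adjusted p under 0.05. Ddit3 gained one in 2. Results that turned sign were Mthfd2 without PBS replicate 3 (0.12) or pIpC replicate 3 (0.036), within a range of -0.189 to 0.12 when a library was left out, Aldh1l1 without pIpC replicate 2 (-0.15, in a range up to 1.164) and Nars1 after quantile normalization (-0.016), and the cause was not tested.

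With a replicate block 6095 genes, 5 members and 60 pathway genes were called, Asns and Shmt2 being lost (adjusted p = 0.129 and 0.133) and Brd9 staying at 0.199 (adjusted p = 0.375). Same-numbered libraries deviated from their group means with correlations of -0.117, 0.143 and 0.0405, so the numbers were not taken as pairs. Depth limits Trib3, and Phgdh and Chac1 in PBS, where each library had 24 reads or fewer. Among the list genes named, it also limits Trib2, Ggt5, Slc7a11 and Nupr1 in PBS and Stc2, Cth and Atf3 in pIpC. The counts cover neither cell composition nor protein.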
